A study of Mus musculus with 12 samples.

Results

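Genes that set the size of skeletal muscle and the fate of its precursor cells were followed through all 12 arrays of a study of a congenic mouse strain. The group was defined by name as 10 genes: the ubiquitin ligase genes Trim63 and Fbxo32, the growth factor genes Mstn and Igf1, the transcription factor gene Foxo1, the cell cycle inhibitor gene Cdkn1a, the myogenic factor genes Myod1, Myog and Myf6, and the satellite cell gene Pax7. Probes were found through the platform's gene annotation by gene ID, current symbol or synonym. This gave 1 probe each for 8 of the 10 genes, among 33012 probes and 13840 named genes in all. Trim63 and Igf1 had no probe under their names and were not analysed here.

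The arrays compared congenic males, homozygous B6.CAST-17 mice that carry CAST chromosome 17 sequence on the B6 background, with B6 males of the wild type. The design text gives 3 mice per strain as the source of both tissues, which makes 4 groups of 3 arrays with each animal a biological replicate. No treatment is named, and the sources used here do not give the muscle dissected, the age or the ends of the CAST segment. The titles call the congenics short only for hypothalamus, and since the sample descriptions give the congenic strain even for wild type arrays, groups follow the titles. Every value is a log2 intensity as deposited, and a difference of 1 stands for a 2-fold change if the base is 2, as the range of the values implies. Values of one probe were compared between arrays and not with values of another probe.

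Muscle mass reflects the balance of protein synthesis and breakdown. Insulin-like growth factor 1, the product of Igf1, acts through the kinase Akt to raise synthesis and to keep Foxo transcription factors out of the nucleus. Foxo factors that reach the nucleus activate Fbxo32 (atrogin-1) and Trim63 (MuRF1), whose products mark muscle proteins for the proteasome, and myostatin, the product of Mstn, restrains growth through activin receptors and Smad proteins. Satellite cells, the stem cells of muscle, carry Pax7, and their descendants switch on Myod1, then Myog, and leave the cell cycle with the help of the inhibitor p21, the product of Cdkn1a, while Myf6 (MRF4) is the myogenic factor that predominates in adult fibres.

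Promoter sequences are shown for 4 of the measured genes because they stand for the patterns described in the data: Myog and Mstn were higher in muscle, Foxo1 did not pass the test of a tissue difference, and Cdkn1a lies on the chromosome that carries the CAST segment. RefSeq (GRCm38.p6) gave a window of 300 bases, 250 before the annotated start and 50 from it on, for 7 of the 10 genes, with 2 starts for Cdkn1a, and not for Fbxo32, Myod1 and Myf6. The windows are chr1:134289754-134290053 (+ strand) for Myog, chr1:53061390-53061689 (+ strand) for Mstn, chr3:52268087-52268386 (+ strand) for Foxo1, and chr17:29090729-29091028 and chr17:29093519-29093818 (both + strand) for the upstream and the downstream start of Cdkn1a. Capitals mark, on either strand, the E-box CANNTG bound by myogenic factors, the MEF2-type core CTANNNNTA, the TATA box TATAAA, the GC box GGGCGG and the p53 half-site. These sequences are of the reference strain, and the CAST sequence was not analysed here.
Myog: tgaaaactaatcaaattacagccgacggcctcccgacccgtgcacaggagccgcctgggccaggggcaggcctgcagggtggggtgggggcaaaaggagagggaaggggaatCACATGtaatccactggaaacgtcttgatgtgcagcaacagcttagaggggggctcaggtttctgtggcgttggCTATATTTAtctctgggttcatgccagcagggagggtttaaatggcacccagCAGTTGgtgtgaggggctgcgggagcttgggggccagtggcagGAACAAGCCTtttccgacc
Mstn: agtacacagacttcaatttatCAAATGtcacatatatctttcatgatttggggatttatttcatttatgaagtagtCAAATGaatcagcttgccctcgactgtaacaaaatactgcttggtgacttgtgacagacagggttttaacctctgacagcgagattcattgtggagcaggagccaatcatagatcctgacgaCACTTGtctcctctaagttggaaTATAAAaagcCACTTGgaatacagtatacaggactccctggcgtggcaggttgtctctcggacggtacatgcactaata
Foxo1: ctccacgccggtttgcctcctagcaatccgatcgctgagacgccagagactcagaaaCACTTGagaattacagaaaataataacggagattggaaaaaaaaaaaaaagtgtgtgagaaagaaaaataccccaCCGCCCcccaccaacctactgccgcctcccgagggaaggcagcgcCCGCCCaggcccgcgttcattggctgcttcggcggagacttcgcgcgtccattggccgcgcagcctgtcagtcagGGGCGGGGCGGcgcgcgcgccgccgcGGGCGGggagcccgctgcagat
Cdkn1a upstream start: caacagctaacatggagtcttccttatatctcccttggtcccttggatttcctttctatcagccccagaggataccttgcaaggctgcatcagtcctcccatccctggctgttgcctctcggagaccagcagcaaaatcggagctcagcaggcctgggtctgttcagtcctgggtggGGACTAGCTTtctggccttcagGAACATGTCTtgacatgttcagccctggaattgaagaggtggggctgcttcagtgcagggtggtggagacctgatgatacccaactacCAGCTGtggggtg
Cdkn1a downstream start: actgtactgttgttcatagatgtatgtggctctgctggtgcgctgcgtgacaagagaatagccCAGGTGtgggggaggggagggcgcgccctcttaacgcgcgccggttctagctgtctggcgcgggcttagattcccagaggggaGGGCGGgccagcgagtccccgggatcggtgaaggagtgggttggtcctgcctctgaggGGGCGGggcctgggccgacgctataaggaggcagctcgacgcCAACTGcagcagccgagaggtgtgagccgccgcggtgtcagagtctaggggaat

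Distances are from the start to the first base of a match. The Mstn window held 4 E-boxes, a number reached by 6.49% of the 32851 promoter windows of this length. It also held a TATA box 29 bases before the start, where 13.6% of windows hold at least 1 TATA box at any place. The Myog window held 2 E-boxes, the nearer 12 bases before the start, and 1 MEF2-type core 64 bases before it. At any place in the window, that core was found in 6913 of the 32851 windows. At least 1 E-box was present in 72.3% of all windows, so most windows share it. The Foxo1 window held 5 GC boxes, of which 1 pair overlaps, and no TATA box, where 35.7% of windows hold at least 1 GC box. The upstream window of Cdkn1a held 2 p53 half-sites, 73 and 51 bases before the start, and the Myog window held 1 at 31 bases after the start. At least 1 such half-site, at any place, was held by 8.36% of windows. The downstream window of Cdkn1a held 2 GC boxes and 2 E-boxes. The Pax7 window held no E-box, and the MEF2-type core was found neither there nor in the windows of Mstn, Foxo1 and Cdkn1a. A match describes letters and was not tested as a site.

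The median of the muscle fibre markers followed the titles, while hypothalamus array 1 of each strain stood apart in correlation or in markers. For 11 markers of muscle fibres measured of 14 listed, the median per array was 19.92 to 20.15 in muscle, against 8.81 to 9.46 in hypothalamus. Among them Myh7 alone went the other way, at 8.15 to 10.54 in muscle and 12.97 to 14.74 in hypothalamus. Wild type hypothalamus array 1 correlated at a Spearman rho of 0.420 to 0.461 with the other hypothalamus arrays, which reached 0.853 among themselves. Its neuronal marker median of 12.28 lay below the 13.89 to 15.89 of the other 5. Their summed level of 18.97 (log2) on this array lay within the 18.95 to 19.80 of the other 5. Syn1, Tubb3 and Slc17a6 were lowest there, at 12.28, 10.36 and 7.61, while Gad1 and Syt1 were highest, at 17.46 and 13.57. The hypothalamus differences of the 8 genes are therefore given with and without wild type array 1. On congenic hypothalamus array 1 the summed level of pituitary markers was 19.11 (log2), against 13.80 to 15.18 on the other 5. Congenic muscle array 3 correlated at 0.796 to 0.816 with the other muscle arrays, whose highest correlation was 0.862. The arrays of each tissue share 1 distribution, whose median was 9.12 for muscle and 8.98 for hypothalamus, so tissues were normalized separately and a level set across them carries that limit. The whole tissue was measured, so fewer cells of a type and less RNA per cell cannot be told apart.

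**Figure D1:**
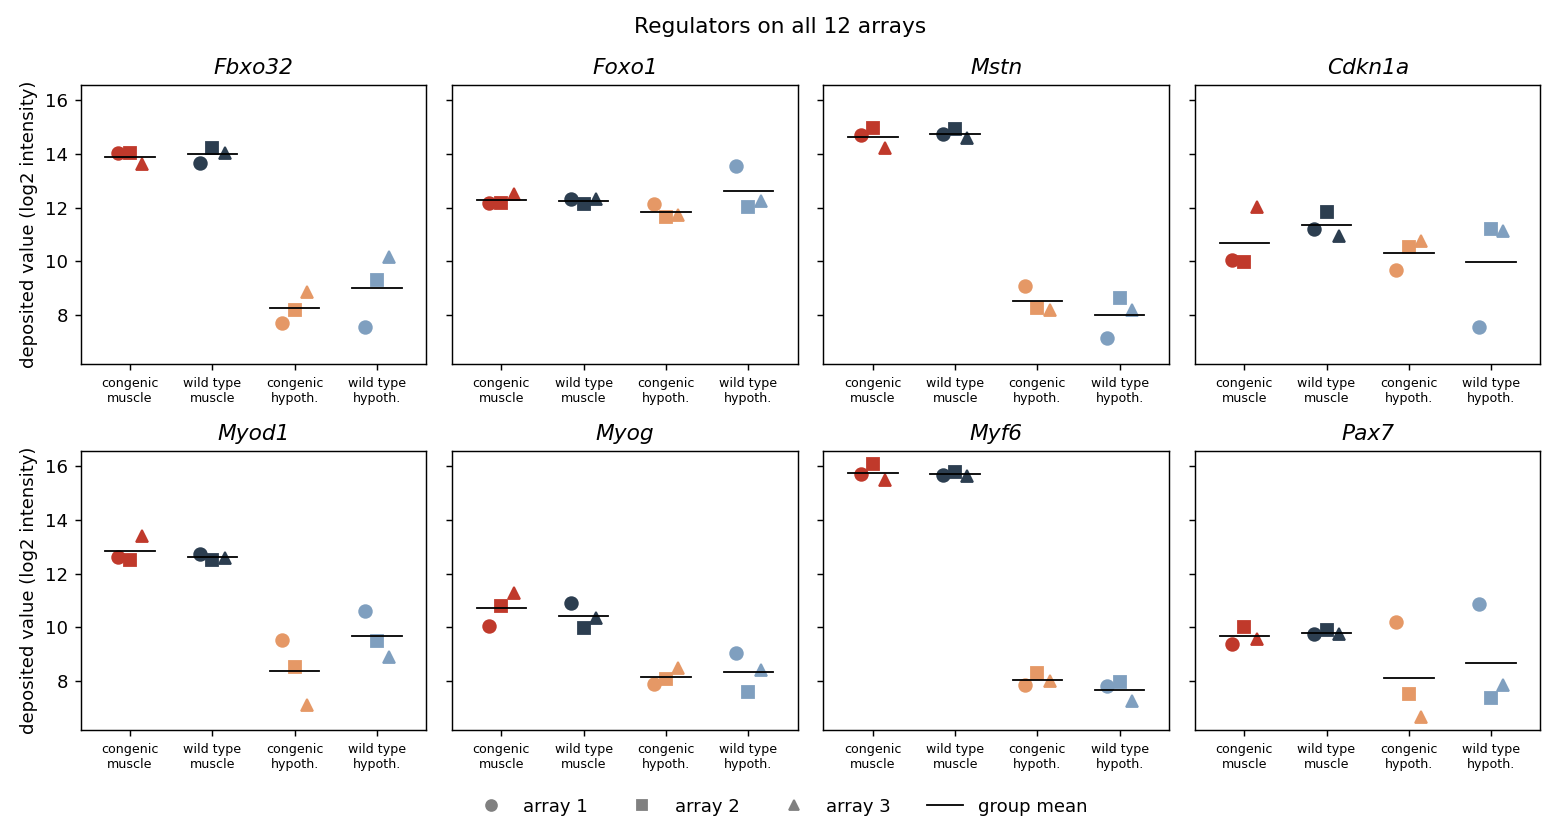
Deposited value (log2 intensity, vertical axis) of the 8 measured genes in the 4 groups of 3 arrays (horizontal axis), with a symbol for each array number and a line at each group mean. Fbxo32, Mstn, Myod1, Myog and Myf6 lie higher on all 6 muscle arrays than on any hypothalamus array, Foxo1 and Cdkn1a overlap between tissues, and Pax7 is above 10 on hypothalamus array 1 of both strains.

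The first question was whether the congenic strain differs from wild type in muscle. None of the 8 genes passed: limma called 0 of 8 at an adjusted p under 0.05, where 0.0182% of all probes were called. An unadjusted p under 0.05 was found for 0 of the 8 and for 1653 of all 33012 probes. The 8 differences ran from -0.65 to 0.30, with 4 positive and 4 negative and a median of -0.03, beside a median of 0.01 over all probes. The limma adjusted p-values were 0.844 to 0.981. By the exact two-sided permutation test of each gene alone, whose smallest possible p is 0.1 for 3 against 3, the p-values were 0.4 to 0.8. In none of the 8 genes were the strains fully separated, where 11.9% of all probes had groups that did not overlap.

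Fbxo32, the ligase gene of the atrophy programme, read 14.03, 14.02 and 13.61 on congenic arrays 1, 2 and 3 and 13.67, 14.24 and 14.04 on the wild type arrays. The groups overlapped, and the difference of -0.10 (SE 0.22) had a 95% interval of -0.58 to 0.38, that is, from 0.668 to 1.30 times the wild type level (limma adjusted p = 0.936). A change of 2-fold in either direction lies outside that interval. Foxo1 was the steadiest of the 8 in muscle, at 12.19, 12.16 and 12.52 in congenic and 12.31, 12.12 and 12.33 in wild type mice, and its SD of 0.15 over 6 arrays was the smallest. Its strain difference was 0.04 (SE 0.22; 95% interval -0.47 to 0.54; limma adjusted p = 0.981). Neither the transcription factor nor the measured ligase of this pathway thus gave a strain difference beyond the spread between arrays.

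Mstn, the gene of the growth inhibitor myostatin, gave 14.72, 14.95 and 14.22 in congenic muscle and 14.73, 14.94 and 14.61 in wild type muscle. Arrays 1 and 2 of the strains nearly coincided and congenic array 3 was the lowest. The difference was -0.13 (SE 0.21), with a 95% interval of -0.61 to 0.35 (limma adjusted p = 0.916).

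The myogenic factors read as follows. Myod1, which commits cells to the muscle lineage, was 12.63, 12.52 and 13.40 in congenic against 12.73, 12.51 and 12.60 in wild type muscle, and it differed by 0.24 (SE 0.26; 95% interval -0.35 to 0.83; limma adjusted p = 0.872). Myog, which drives terminal differentiation, was 10.05, 10.81 and 11.29 against 10.91, 9.98 and 10.35, and it differed by 0.30 (SE 0.41; 95% interval -0.61 to 1.22; limma adjusted p = 0.895). For both genes the highest of the 6 values came from congenic array 3. Myf6, the factor of mature fibres, was 15.72, 16.10 and 15.48 against 15.66, 15.80 and 15.62, a difference of 0.08 (SE 0.19; 95% interval -0.34 to 0.49; limma adjusted p = 0.946). Pax7 was 9.39, 10.02 and 9.57 against 9.75, 9.90 and 9.76, a difference of -0.14 (SE 0.38; 95% interval -0.99 to 0.70; limma adjusted p = 0.949). Its wild type arrays spanned less than its congenic arrays, and the groups overlapped.

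Cdkn1a, on chromosome 17, had the largest absolute difference of the 8 genes in muscle. It read 10.05, 9.99 and 12.01 on congenic arrays 1, 2 and 3 and 11.22, 11.83 and 10.96 on the wild type arrays. Congenic arrays 1 and 2 lay below every wild type array, while congenic array 3 lay above them all. The means were 10.68 ± 1.15 (SD, n = 3) and 11.33 ± 0.45 (SD, n = 3), and the difference was -0.65 (SE 0.53), with a 95% interval of -1.83 to 0.53 (limma adjusted p = 0.844). Without congenic array 3 it was -1.32 (SE 0.32), or 2.49-fold lower, with a 95% interval of -2.04 to -0.59 and a limma adjusted p of 0.769. The array left out here was the congenic array that lay above wild type, so this interval rests on that choice. Without congenic array 1 or 2 instead, the difference was -0.34 (SE 0.57) or -0.31 (SE 0.56). The sign stayed negative with each muscle array left out and under the other settings, down to -0.31 at its smallest.

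Cdkn1a was gene 213 of the 656 measured genes of chromosome 17 in chromosome order, between Taf11, 20 genes before it, and H2-Ea, 82 genes after it, both of which limma called in muscle. Limma called 0 of the 5 nearest measured genes on either side. Beside 1653 of all 33012 probes, 1 of these 10 had an unadjusted limma p under 0.05. It was Ppil1, a peptidyl-prolyl isomerase gene, at -1.49 (limma adjusted p = 0.835). Its immediate neighbours, the splicing factor gene Srsf3 and Rab44, differed by -0.20 and 0.50. These neighbours were chosen after the values were seen. Likeness of values over the 6 muscle arrays was searched among 8595 genes with a muscle mean at or above the median of all probes. The 3 genes nearest to Cdkn1a were Thap11, Eepd1 and Flywch1, with Pearson r of 0.992, 0.986 and 0.986. They lie on chromosomes 8, 9 and 17. Thap11 was 14.63, 14.60 and 14.99 on the congenic and 14.80, 14.98 and 14.81 on the wild type arrays, so its values moved with those of Cdkn1a within a narrower range. Values this high are met by search among many genes over few arrays, and they are given as a description.

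**Figure D2:**
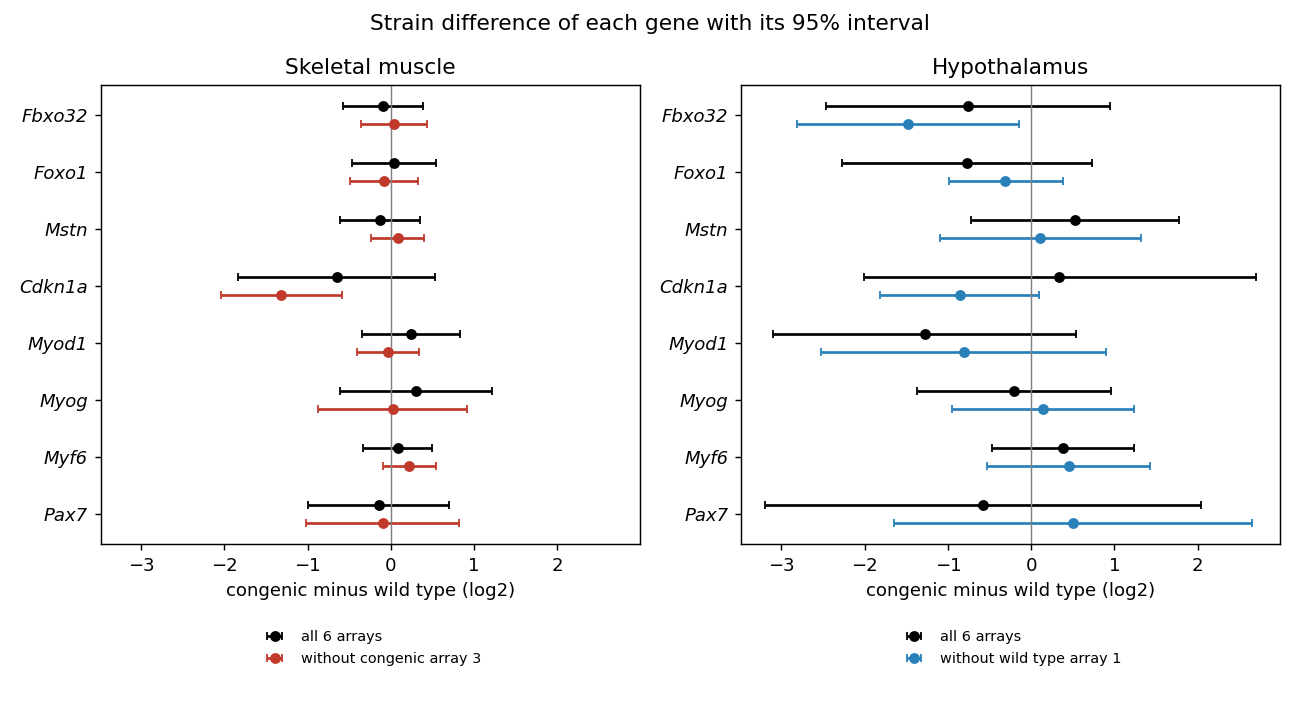
Congenic minus wild type difference (log2, horizontal axis) of each gene with its 95% interval, in skeletal muscle (left) and hypothalamus (right), over all 6 arrays of the tissue in black and without 1 array in colour. In muscle all 8 black intervals include 0, and Cdkn1a moves from -0.65 to -1.32 without congenic array 3.

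Congenic muscle array 3 carried an extreme value for most of the group. It was the highest of the 6 muscle arrays for Foxo1, Cdkn1a, Myod1 and Myog and the lowest for Fbxo32, Mstn and Myf6, which makes 7 of 8 genes, with Pax7 as the exception. Over all probes this array was the highest or the lowest for 49.0%, against 28.0% to 33.3% for each of the other 5 muscle arrays. The share among the 8 genes was thus set beside a high background of the same array. Mef2c, a transcription factor of the MEF2 family and a partner of the myogenic factors, read 13.18 on this array and 15.26 to 15.73 on the other 5. On the same array the summed level of 4 adipocyte markers measured of 6 was the lowest of the muscle arrays at 17.06 (log2; 17.81 to 19.48 on the other 5). That sum was carried by Fabp4, at 17.04. Lep and Retn were also lowest there, at 7.75 and 7.02, while Plin1, at 11.07, lay within the 10.58 to 11.78 of the other 5. The summed level of 3 blood markers measured of 5 was the highest at 18.96 (17.33 to 18.35). The part of these markers in the result was not tested. The 11 fibre markers summed to 23.44 to 23.60 over the 6 muscle arrays.

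**Figure D3:**
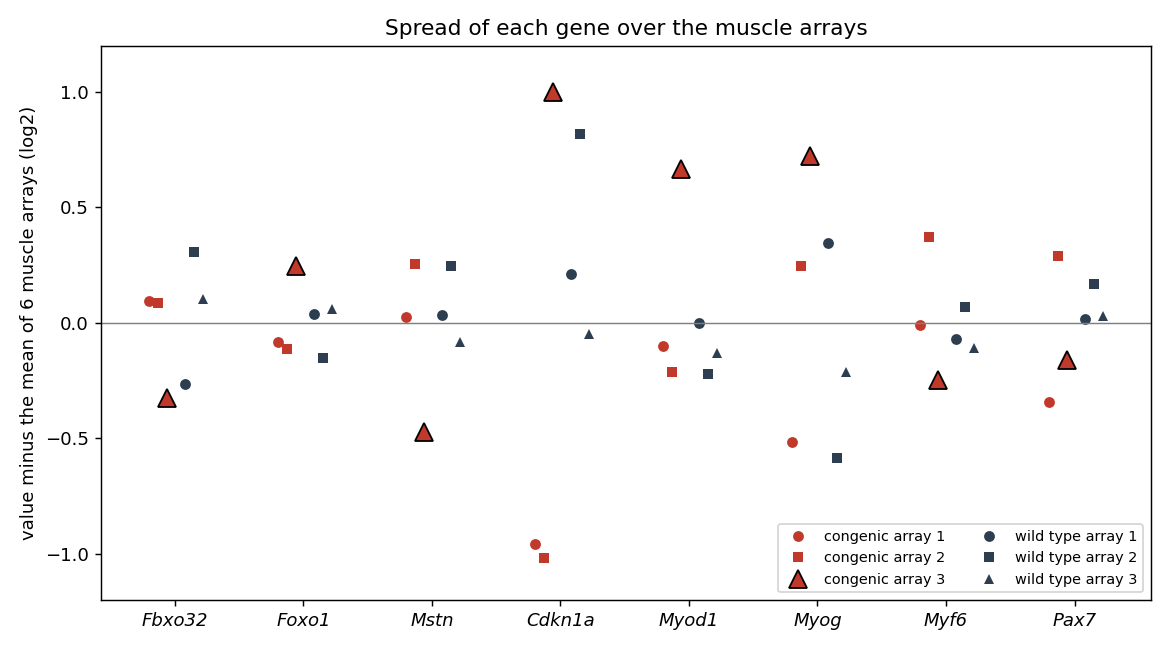
Value of each gene on each muscle array minus its mean over the 6 arrays (log2, vertical axis), by gene (horizontal axis), congenic in red and wild type in dark blue. The enlarged triangle of congenic array 3 is the highest point for Foxo1, Cdkn1a, Myod1 and Myog and the lowest for Fbxo32, Mstn and Myf6.

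Since Foxo1 acts upstream of both Fbxo32 and Cdkn1a, their values were compared over the 6 muscle arrays, in 3 pairs. Foxo1 and Fbxo32 ran in opposite directions, with a Pearson r of -0.83 (exact permutation p = 0.0375, adjusted p = 0.112) and a Spearman rho of -0.60 (exact permutation p = 0.242, adjusted p = 0.714). This rests on the outer arrays: without the 2 farthest from the median of Foxo1, congenic array 3 and wild type array 2, r was -0.47. Foxo1 and Cdkn1a gave r = 0.52 and rho = 0.37 (exact permutation p = 0.293 and 0.497), and Fbxo32 and Cdkn1a gave r = -0.29 and rho = -0.20 (exact permutation p = 0.518 and 0.714). Without the 2 arrays farthest from the median of the first gene these became 0.96 and 0.89, so the last changed sign. No pair passed after adjustment over the 3, and 3 arrays a strain are too few for a value within a strain.

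Other genes of the same pathways were read from 10 lists, of which 138 of 185 genes were measured. In muscle limma called 0 of the 138 for a strain difference. An unadjusted p under 0.05 was found for 9 of them, beside 1653 of all 33012 probes. The median was 0.04, beside 0.03 over all named genes. Among the lists, the 2 genes of each with the smallest p are named here, and none of them passed. For IGF signalling they were Igfbp6 and Igfbp5, binding proteins of insulin-like growth factors, at 0.68 and -0.89 (limma adjusted p = 0.835 for both). Igfbp6 had the lowest p of the 138 genes. For myostatin signalling they were Bmpr1a, a BMP receptor, and Fstl3, a follistatin-like binding protein, at 0.58 and -0.56. Among atrophy genes they were Mt1, a metallothionein, and Ube2d1, a ubiquitin-conjugating enzyme, at 0.73 and -0.35. For autophagy they were Sqstm1, the cargo receptor p62, and Atg7 at 0.24 and 0.79.

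In the remaining lists the values were of similar size. Among Foxo-responsive genes Bcl6 and Cat, the gene of catalase, differed by -0.59 and 0.26. Among cell cycle genes Cdkn1c, the inhibitor p57, and Cdk6 differed by 0.45 and 0.79, and Cdkn1c was, like Cdkn1a, highest on congenic array 3, at 15.43 against 14.53 to 14.88 on the other 5. Mef2c and Tcf4 differed by -1.07 and -0.39 among myogenic genes, the former carried by congenic array 3 as given above. Among satellite cell genes Vcam1, an adhesion molecule, and Cd34 differed by -1.09 and 0.48, and among junction genes Chrna1, a subunit of the acetylcholine receptor, and Musk, the kinase that organises the junction, by 0.69 and -0.84. Cebpd, a transcription factor induced by glucocorticoids, and Sgk1, a glucocorticoid-induced kinase, differed by 0.80 and -0.33. Limma adjusted p-values of all genes named in these lists were 0.835 to 0.856.

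Summed levels of some markers of other cells were higher in congenic muscle, although no single gene of these lists passed limma. The summed level of macrophage markers (6 measured of 8) was 17.22 to 17.38 (log2) on the congenic and 16.11 to 16.72 on the wild type arrays, and that of fibroblast and tendon markers (8 of 8) was 19.17 to 19.51 against 18.58 to 19.12. The macrophage sum was carried by C1qa, C1qb and C1qc, which separated the strains, as 11.9% of all probes did. C1qa was at 16.44 to 16.67 against 15.33 to 15.88. Mrc1 and Adgre1 overlapped, at 12.39 to 13.35 against 12.40 to 12.74 and 9.12 to 9.57 against 8.93 to 9.57. Aif1 and, of the fibroblast genes, Pdgfra went the other way, at -0.43 and -0.23. Limma adjusted p-values were 0.465 to 0.914 for the macrophage and 0.835 to 0.99 for the fibroblast genes. The median of the fibroblast markers per array overlapped between strains, at 14.33 to 14.87 and 14.18 to 14.41. Satellite cell and fibroblast genes such as Cd34 are measured in the same extract, and the part of these cells in the strain values was not tested. Summed levels of endothelial markers overlapped, at 14.33 to 14.92 and 14.74 to 15.14. Of these genes Cdh5 separated the strains, at 7.59 to 8.51 in congenic against 9.45 to 9.61 in wild type muscle. Vwf did so in the other direction, at 8.35 to 10.09 against 8.02 to 8.20. They differed by -1.52 and 0.91 (limma adjusted p = 0.835 for both).

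In the hypothalamus, where the median of the muscle fibre markers was low, limma called 0 of the 8 genes for a strain difference. Of the 8, 0 had an unadjusted p under 0.05. The background was 0.0% of probes called (658 had an unadjusted p under 0.05). The differences ran from -1.28 for Myod1 to 0.53 for Mstn. The intervals were wide: that of Cdkn1a was -2.01 to 2.70, and that of Pax7 -3.19 to 2.04. Without congenic array 1, which was high in pituitary markers, the difference of Pax7 was -1.62 (SE 1.01; limma adjusted p = 0.988). Without wild type array 1 the differences of Pax7 and Myog changed sign, from -0.58 to 0.50 and from -0.21 to 0.14. That of Mstn fell to 0.11, and those of Myod1, Foxo1 and Myf6 were -0.81, -0.31 and 0.45, against -1.28, -0.77 and 0.38 with it. Without that array 1 of the 8 had an unadjusted limma p under 0.05, beside 1761 of 33012 probes, and 0 passed. That gene was Fbxo32, at 7.71, 8.17 and 8.86 in congenic against 9.30 and 10.16 on wild type arrays 2 and 3, and it differed by -1.48 (SE 0.58; 95% interval -2.81 to -0.15; limma adjusted p = 0.900). With arrays weighted by quality its limma adjusted p was 0.399. On wild type array 1 it read 7.56, below every other hypothalamus array. Cdkn1a was 9.66, 10.53 and 10.74 in congenic hypothalamus against 7.57, 11.20 and 11.14 on wild type arrays 1, 2 and 3, so the groups overlapped. Its difference was 0.34 with wild type array 1 and -0.86 without it (SE 0.42; limma adjusted p = 0.900). The pathway lists gave 0 of 138 called by limma. An unadjusted p under 0.05 was found for 4, and for 10 without wild type array 1. The count over all probes rose as well, from 658 to 1761. Over all lists the 2 genes with the smallest p per list differed by -2.17 for Itga7, an integrin subunit, to 2.69 for Gabarapl1, an autophagy gene. Gabarapl1 read 8.75 on wild type array 1 and 14.60 to 17.98 on the other 5, and without that array it differed by 0.52, and Itga7 by -2.41.

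The strain difference was compared between tissues by an interaction contrast. Limma called 0 of the 8 genes, with 0 at an unadjusted p under 0.05 and 0.0% of probes called (1198 at an unadjusted p under 0.05). The contrasts ran from -1.0 for Cdkn1a (SE 1.24; 95% interval -3.68 to 1.69) to 1.52 for Myod1 (SE 0.89; 95% interval -0.40 to 3.44), with limma adjusted p-values of 0.913 to 0.960. Without wild type hypothalamus array 1 the contrast of Cdkn1a turned to 0.20 (SE 0.75; 95% interval -1.41 to 1.82) and that of Pax7 from 0.43 to -0.64, while that of Myod1 was 1.05 (SE 0.74; 95% interval -0.55 to 2.64). Limma again called 0 of the 8, and 1 of them, beside 2224 of all 33012 probes, had an unadjusted p under 0.05. This was Fbxo32, with a contrast of 1.38 (SE 0.52; 95% interval 0.26 to 2.49; limma adjusted p = 0.718). Of the 138 list genes limma called 0, and 2 had an unadjusted p under 0.05, Itga7 at 2.36 and the topoisomerase gene Top2a at 1.51. Without that array these were 2.60 and 1.52, limma called 0, and 8 had an unadjusted p under 0.05, beside 2224 of all probes.

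Between tissues the group split into genes that were far higher in muscle and genes that were not. Limma called 5 of the 8 genes as higher in muscle and 0 as lower, where 18.5% of all probes were called higher and 11.0% lower. These 5 were also the genes whose 6 muscle values all lay above the 6 hypothalamus values, which 13.3% of probes showed. Without wild type hypothalamus array 1 the count was 6, against 24.8% higher and 15.7% lower, the sixth being Pax7. The median difference of all probes was 0.17, and -0.01 when all 12 arrays were normalized to 1 distribution, so differences below about that shift have no settled direction. The 5 genes passed under every alternative run.

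Myf6 showed the widest gap. It was 15.48 to 16.10 in muscle, with a median of 15.69, and 7.24 to 8.31 in hypothalamus, with a median of 7.90, so the lowest muscle value stood more than 7 units over the highest hypothalamus value. The difference was 7.87 (SE 0.28), or 234-fold, with a 95% interval of 153 to 359-fold (limma adjusted p = 4.54e-10). On the hypothalamus arrays its probe ranked between percentile 4.14 and 35.1 of all probes, so the fold depends on where background lies. The same holds for Mstn, Fbxo32, Myod1 and Myog, whose probes reached down to percentile 3.01, 10.5, 2.59 and 11.6 on hypothalamus arrays and were not shown to be above background there. Mstn was 14.22 to 14.95 in muscle (median 14.73) and 7.15 to 9.10 in hypothalamus (median 8.22), a difference of 6.45 (SE 0.34), or 87.3-fold (limma adjusted p = 1.19e-08).

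Fbxo32 was 13.61 to 14.24 in muscle (median 14.02) and 7.56 to 10.16 in hypothalamus (median 8.52), a difference of 5.31 (SE 0.43), or 39.6-fold (limma adjusted p = 6.05e-07). Its muscle values lay within 1 unit of each other while its hypothalamus values spread over more than 2. Myod1 was 12.51 to 13.40 against 7.11 to 10.62 (medians 12.61 and 9.19), a difference of 3.70 (SE 0.44), or 13.0-fold (limma adjusted p = 2.63e-05). Myog was 9.98 to 11.29 against 7.60 to 9.04 (medians 10.58 and 8.23), a difference of 2.32 (SE 0.37), or 5.01-fold (limma adjusted p = 0.000305). Its highest hypothalamus value came from wild type array 1. All 3 myogenic factors therefore separated the tissues without overlap.

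Foxo1 gave 12.12 to 12.52 in muscle (median 12.25) and 11.65 to 13.54 in hypothalamus (median 12.08), a difference of 0.05 (SE 0.32; 95% interval -0.64 to 0.75; limma adjusted p = 0.929). A tissue difference of 2-fold lies outside this interval, which averages the strains and does not carry the separate normalization of the tissues. In the congenic and the wild type strain alone the difference was 0.46 (SE 0.46) and -0.35 (SE 0.46). The value of 13.54 was that of wild type hypothalamus array 1, and the sign of the difference changed under 5 of 21 alternatives. Without that array the difference was 0.28 (SE 0.19; limma adjusted p = 0.258). Cdkn1a gave 9.99 to 12.01 in muscle and 7.57 to 11.20 in hypothalamus (medians 11.09 and 10.63), a difference of 0.87 (SE 0.62; 95% interval -0.47 to 2.21; limma adjusted p = 0.343), and 0.27 without wild type array 1. Its values overlapped between tissues, and the interval leaves room for a difference of over 4-fold.

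Pax7 was 9.39 to 10.02 in muscle (median 9.75), and in hypothalamus it was 10.19, 7.50 and 6.64 on congenic arrays 1, 2 and 3 and 10.85, 7.36 and 7.85 on the wild type arrays. Array 1 of each strain lay above all muscle arrays, and the other 4 lay below them. The difference was 1.33 (SE 0.66; limma adjusted p = 0.156) over all arrays, 1.87 (SE 0.52; limma adjusted p = 0.00968) without wild type array 1, 1.85 (limma adjusted p = 0.0319) without congenic hypothalamus array 1, and 2.39 (SE 0.33; limma adjusted p = 5.74e-05) without both. Pax7 is also known as a factor of the intermediate lobe of the pituitary. The pituitary hormone genes Pomc and Gh were 18.18 and 17.46 on congenic hypothalamus array 1, against 8.68 to 12.97 and 7.57 to 8.86 on the other 5. The list did not move as one on wild type array 1, where Pax7 was highest: Pomc and Gh were the lowest of the 6 hypothalamus arrays there, at 8.68 and 7.57, while Tshb, a thyrotropin subunit, was the highest at 12.92. Tshb was 12.35 on congenic array 1 and 7.47 to 10.30 on the other 4, so it was high on the same arrays as Pax7. Cga and Prl were 14.72 and 9.27 on wild type array 1, second to congenic array 1 at 15.56 and 14.94, and Lhb was 10.37, within the 10.15 to 11.49 of the others. The summed level of 6 pituitary markers measured of 9 was 13.80 to 19.11 (log2) in congenic and 14.12 to 15.18 in wild type hypothalamus. Their part in the Pax7 values was not tested.

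**Figure D4:**
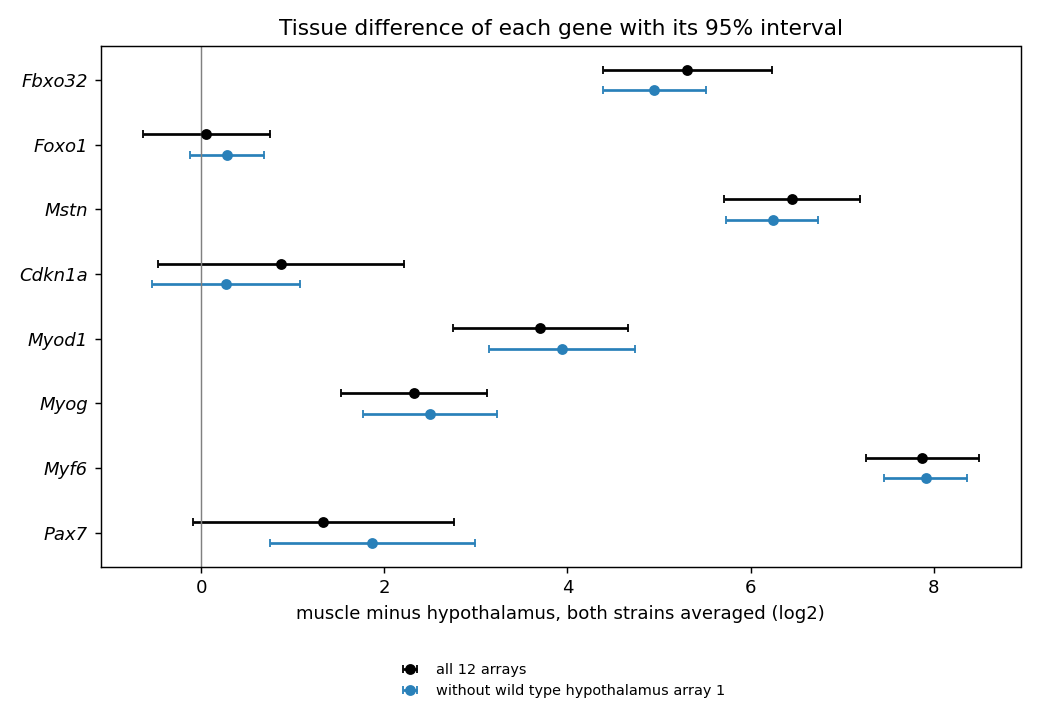
Muscle minus hypothalamus difference (log2, horizontal axis) of each gene, averaged over both strains, with its 95% interval, over all 12 arrays in black and without wild type hypothalamus array 1 in blue. Myf6, Mstn, Fbxo32, Myod1 and Myog lie between 2.32 and 7.87, Foxo1 and Cdkn1a have intervals that include 0, and the interval of Pax7 clears 0 only without that array.

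In the pathway lists, limma called 50 of the 138 measured genes as higher in muscle (36.2%) and 10 as lower (7.25%), beside 23.3% and 12.6% of all 13840 named genes. The median difference was 0.62, beside 0.26 over all named genes. Without wild type hypothalamus array 1 the counts were 60 (43.5%) and 20 (14.5%), beside 30.4% and 19.1% of all named genes. The lists were chosen by role in muscle, and their counts are a description.

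Among Foxo family and Foxo-responsive genes 8 of 13 rose in muscle and 1 fell relative to hypothalamus, with a median of 1.83. Pdk4, a kinase that limits the use of glucose by mitochondria, was higher by 5.71 (limma adjusted p = 7.09e-08), Txnip, an inhibitor of thioredoxin, by 4.87, and Sod2, the mitochondrial superoxide dismutase, by 2.72. Sesn3, a sestrin, differed by -3.32 (limma adjusted p = 5.43e-05). Foxo1 itself did not pass, as given above. Among glucocorticoid-responsive genes 5 of 8 were higher and 0 lower, led by Cebpb (3.87), Cebpd (3.78) and Tsc22d3 (3.51).

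Among the other atrophy genes 3 of 10 were higher and 1 lower. Trim54, of the same MuRF family as the unmeasured Trim63, was 15.23 ± 0.33 (SD, n = 6) in muscle and 7.97 ± 0.26 (SD, n = 6) in hypothalamus, a difference of 7.25 (SE 0.29; limma adjusted p = 9.2e-10). Ube2d1 was higher by 3.39 and Atf4, a transcription factor of the stress response, by 2.52, and Mt1 differed by -2.31. Without wild type hypothalamus array 1 these became 4 higher and 3 lower. Autophagy genes had 2 of 14 higher, Gabarap (1.56) and Ctsl (1.54), and 0 lower, and 1 higher with all 12 arrays normalized to 1 distribution. Without wild type hypothalamus array 1 the counts were 5 higher and 2 lower, and the median fell to 0.15 from 1.00.

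Around myostatin 6 of 18 genes were higher and 0 lower, with a median of 0.66. Dcn, the proteoglycan decorin, which binds myostatin, was higher by 5.58 (SE 0.34; limma adjusted p = 4.61e-08), Fstl1 by 2.66 and Bmp1, a protease that activates myostatin, by 1.89. Fibroblast and tendon markers, a source of decorin, summed to 18.58 to 19.51 in muscle and 13.73 to 14.83 in hypothalamus, and their part was not tested. Around insulin-like growth factors 8 of 20 were higher and 2 lower, with a median of 0.37. Eif4ebp1, a repressor of translation that mTOR inactivates, was higher by 7.10, Igfbp6 by 6.04 and Akt2, the Akt kinase of insulin-sensitive tissues, by 4.18. Igfbp2 and the receptor gene Igf1r were lower, at -2.46 and -0.91. Igf1r was 12.99 to 13.22 in muscle against 13.73 to 14.23 in hypothalamus, and the tissues did not overlap. Without wild type hypothalamus array 1 this list had 9 higher and 4 lower.

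Among the other myogenic genes 3 of 11 were higher, Mef2c (5.05), Srf (4.11) and Id1 (1.74), and Tcf12, a partner of the myogenic factors, was lower (-2.16). Of 19 satellite cell genes 9 were higher, led by Cd34 (3.23), Itga7 (3.08) and Hes1 (2.38), and 3 lower, Calcr (-3.05), Sdc3 (-2.76) and Notch1 (-1.05). Calcr, the calcitonin receptor, was 12.29 to 12.79 on 5 hypothalamus arrays and below its muscle range, 7.96 to 9.33, on wild type array 1. With all 12 arrays normalized to 1 distribution 6 satellite cell genes were higher and 3 lower. Junction genes had 3 of 11 higher, the acetylcholine receptor subunits Chrnb1 (5.13) and Chrne (3.62) and the anchoring protein gene Rapsn (4.19), and 1 lower, the growth cone protein gene Gap43 (-8.32). Among cell cycle genes 3 of 14 were higher, Cdkn1c (3.08), Ccnd3 (2.57) and Ccnd2 (2.16), and Ccne1 was lower (-2.04). Each of these differences had a limma adjusted p of at most 0.0295.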

How the data were processed

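Expression was measured on 12 one-colour arrays, 3 per strain and tissue, and groups were taken from the titles. Per the labels, digoxigenin-labelled cRNA was made from total RNA with a chemiluminescent kit. The deposited values were taken as log2 intensities (base inferred from the range). The method of background correction is not given in the sources used here, nor is the software. No detection calls were used, so low values cannot be told from background. Values were used with no floor and no filter. The number of arrays limits the precision.

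Strain effects were fitted within each tissue, and tissue and interaction contrasts over 12 arrays in 4 groups, with limma 3.58.1 in R 4.3.3 (mean-variance trend, Benjamini-Hochberg adjustment over 33012 probes, threshold 0.05). A check of the fits on simulated data used independent noise with no outlying array, unlike the data described here. The members and lists were chosen with earlier results of these data known. Each member has 1 probe. For list genes the probe with the highest mean stood for the gene, and up to 3 genes per list and direction that passed are named, or the 2 with the smallest p where none passed (in hypothalamus and for the interaction only their extremes). The likeness search and the planned relations could not use Trim63. Of 14411 probes with 1 gene symbol, 14402 matched a gene table of GRCm38.p6, used for names and gene order. The design text names the same 3 mice per strain for both tissues but not which number is which mouse. Deviations of same-numbered arrays correlated weakly between the tissues of a strain, at 0.02 to 0.0756, which cannot show independence. Nothing was paired, and tissue tests treat arrays as independent although the mice were shared. Alternatives covered the trend, a floor, a filter, normalization, array weights, the replicate block and each array left out, and 1 (both hypothalamus arrays 1 left out) was chosen after seeing the data.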

Additional observations from a re-analysis of the deposited data

How the results depend on the processing

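The tissue differences of Myf6, Mstn, Fbxo32, Myod1 and Myog kept their direction and passed limma under all 21 alternatives, with adjusted p-values up to 0.0136. That of Pax7 passed with array weights (1.57, limma adjusted p = 0.00731) or when hypothalamus array 1 of either strain or of both was left out. No strain difference of a member passed in muscle or hypothalamus under any alternative, and no interaction did. Muscle differences of Fbxo32, Foxo1, Mstn, Myod1 and Myf6 changed sign under 1 or 2 of 12 alternatives each, those of Cdkn1a, Myog and Pax7 under 0.

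In muscle 6 probes were called in all, 2 without the trend, 2 with a floor at the 20th percentile, 1 in a fit of 12 arrays and 2 to 8 with each array left out. For the tissue difference 9753 probes were called, 14789 with array weights, and 6088 and 6335 in the congenic and the wild type strain alone. Deviations of arrays with the same number correlated weakly (r of 0.0147 to 0.0695 between strains in muscle, -0.129 to 0.138 in hypothalamus, and 0.02 to 0.0756 between the tissues of a strain). The numbers were not taken as pairs, and such values cannot show that the arrays are independent. With a replicate block, limma called 6 probes in muscle, 0 in hypothalamus, 9648 between tissues and 0 for the interaction, and 0, 0, 5 and 0 members. In hypothalamus the filter on low probes left 3 members, so no count over all 8 was had.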

Other observations

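Hes1, a target of Notch signalling that holds satellite cells undifferentiated, fell into 2 levels in hypothalamus that did not follow the strains. It was 13.79 and 14.12 on congenic arrays 1 and 2 and 14.10 on wild type array 1, and 10.27 on congenic array 3 and 10.38 and 10.31 on wild type arrays 2 and 3. In muscle its 6 values were 14.21 to 14.94. No test was run on this, since it was picked out by its values.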
